A study of Homo sapiens with 12 samples.

Results

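Homing receptors were measured in RNA-seq of YT cells, a human NK-like lymphoid line that lacks CD16a. The 9 genes described here are the chemokine receptors CCR1, CCR4, CCR6, CCR7, CCR9, CXCR3, CXCR4 and CXCR6 and the sphingosine 1-phosphate receptor S1PR1. They were taken by gene symbol from the 17589 genes of the table, and all 9 passed the filter on low counts, as did 13657 genes in all, which were tested. All cells carried a lentiviral vector with an EF1A promoter and an eGFP reporter and were unstimulated. CTRL cells expressed eGFP alone, and hnCD16 cells expressed the high-affinity, non-cleavable form of the IgG Fc receptor CD16a. FR1 cells carried a fusion receptor (FR) of the hnCD16 ectodomain with the cytoplasmic parts of 2B4, DAP10 and CD3ζ, and FR2 cells the same receptor without 2B4. Each of the 4 groups had 3 libraries, 12 in all. The labels do not say whether the 3 libraries came from separate cultures, so p-values measure only the spread between these libraries.

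Chemokine receptors are G protein-coupled receptors that steer leukocytes along gradients of chemokines. Inflammatory receptors such as CCR1 and CXCR3 lead cells into inflamed tissue, whereas CCR7 and CXCR4 serve homing to lymph node and bone marrow. S1PR1 senses sphingosine 1-phosphate (S1P) and lets lymphocytes leave lymphoid organs. In blood, NK cells of different maturity differ in the receptors they carry, and CXCR3, CXCR4, CCR7 and S1P receptors are among those known for NK cell traffic.

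Libraries held 17714566 to 18729019 counts, and 3 counts, the floor used here, equal 0.160 to 0.169 CPM (counts scaled to a common library size). FCGR3A, the gene of CD16a, had 1012 to 1132 counts in FR2 libraries, 559 to 567 in FR1, 453 to 480 in hnCD16 and 0 in CTRL. The constructs carry this sequence, and reads may be shared with the near-identical FCGR3B. The libraries of the FR1 and FR2 groups stood apart from those of the other groups in lineage markers. The summed level of 16 NK cell markers was 67.2 to 76.4 CPM in CTRL and hnCD16 and 4768 to 5099 CPM in FR1 and FR2. Most of that sum in FR1 was GZMB (2780 ± 69.7 CPM) and NKG7 (804 ± 13.5). Of 14 NK markers tested, 10 were called higher and 2 lower in FR1 than in hnCD16, and 10 and 3 in FR2. CD7 and NCR3 ran against the sum, at 30.2 ± 2.51 and 5.58 ± 0.189 CPM in hnCD16 and 0.825 ± 0.0642 and 0.825 ± 0.139 CPM in FR1. No CTRL or hnCD16 library had over 3 counts of KLRK1, nor any hnCD16 library of NCAM1 or NCR1. KLRF1 was at or under 3 counts in all 12 libraries, and TYROBP was at 0 in every FR1 and FR2 library. The summed level of 12 T cell markers was 921 to 1050 CPM in CTRL and hnCD16 and 136 to 178 CPM in FR1 and FR2, with 11 of the 12 called lower and CD28 higher in each FR group against hnCD16. CD3D, CD4, CD8A, CD8B, CD6 and LCK were at or under 3 counts in every FR1 and FR2 library. The summed B cell markers (7 in the table) were at 15.6 to 20.01 CPM in CTRL and hnCD16 and 45.1 to 53.4 CPM in FR1 and FR2, and 8 myeloid markers at 4.81 to 6.56 CPM and 7.69 to 12.9 CPM. This split follows the constructs exactly, so the fusion receptors and any other difference between these libraries cannot be told apart in the comparisons of FR1 or FR2 with hnCD16 or CTRL, and its part in the receptor results was not tested. Only the comparisons of hnCD16 with CTRL and of FR1 with FR2 lie on 1 side of it.

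The start regions of 3 of these genes are shown because they carried the largest read numbers on each side of the split: CXCR4 and CCR4 in CTRL and hnCD16, CCR1 in FR1 and FR2. Each is the 250 bases before an annotated start, in GRCh38.p14 from RefSeq, read 5′ to 3′ on the strand of the gene. The CXCR4 window is chr2:136118150-136118399 on the minus strand and lies inside the longest annotated form of the gene, the CCR1 window is chr3:46208314-46208563 on the minus strand, and the CCR4 window is chr3:32951394-32951643 on the plus strand. Capitals mark TATAAA and GGGCGG, the letters of a TATA box and a GC box, searched on both strands.
CXCR4: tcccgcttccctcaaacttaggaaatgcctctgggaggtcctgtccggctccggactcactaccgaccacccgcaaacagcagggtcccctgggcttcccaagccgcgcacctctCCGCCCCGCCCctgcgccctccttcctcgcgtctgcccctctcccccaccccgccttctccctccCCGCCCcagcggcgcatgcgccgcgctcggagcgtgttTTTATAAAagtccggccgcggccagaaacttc
CCR1: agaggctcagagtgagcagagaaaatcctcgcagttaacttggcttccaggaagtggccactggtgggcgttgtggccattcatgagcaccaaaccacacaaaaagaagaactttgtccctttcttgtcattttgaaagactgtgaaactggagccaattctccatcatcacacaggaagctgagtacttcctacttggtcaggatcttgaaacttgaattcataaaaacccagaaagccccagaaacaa
CCR4: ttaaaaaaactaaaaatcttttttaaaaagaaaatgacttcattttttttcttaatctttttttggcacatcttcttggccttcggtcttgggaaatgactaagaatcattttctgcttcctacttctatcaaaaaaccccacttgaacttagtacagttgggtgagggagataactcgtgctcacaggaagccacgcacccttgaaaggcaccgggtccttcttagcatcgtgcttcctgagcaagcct
The CXCR4 window holds TATAAA on both strands in 1 overlapping run and 3 matches to GGGCGG, and it has 24 CpG dinucleotides. The CCR1 and CCR4 windows hold neither motif, with 2 and 5 CpG. Over the 34788 windows of this length in the RefSeq table, 10.77% hold TATAAA, 42.58% hold GGGCGG, and the median is 11 CpG. A match describes the letters of the window only. Windows were found for 8 of the 9 genes, the exception being CCR7, and the other windows are not shown.

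The 9 receptors split 3 ways between the FR groups and the other groups. CXCR4, CCR4 and CCR9 were lower in each of the 6 FR libraries than in any CTRL or hnCD16 library. CCR1, CXCR6 and CXCR3 were higher in each of the 6. The libraries of CCR6, CCR7 and S1PR1 overlapped. How many of all tested genes were without overlap in this way was not counted, so the split only describes these receptors. A DEG changed by 1 or more on the log2 scale in either direction, with an adjusted p (Benjamini-Hochberg) no higher than 0.05 in edgeR's quasi-likelihood test over all tested genes. In FR1 against hnCD16, 3 of the 9 receptors were up-regulated and 3 down-regulated, while 18.7% of all tested genes were called higher and 19.6% lower. The same 3 and 3 were called in FR2 against hnCD16, where 19.6% of all genes were higher and 19.8% lower. The median log2 fold change of the 9 receptors was -0.20 in FR1 against hnCD16 and 0.10 in FR2 against hnCD16, beside -0.01 and -0.03 over all tested genes. Their median absolute log2 fold change was 3.63 and 2.83, beside 0.70 and 0.73. Against CTRL, 3 receptors were higher and 4 lower in FR1 (18.3% and 19.8% of all genes), and 2 were higher and 3 lower in FR2 (18.7% and 19.6%). These comparisons share their hnCD16, CTRL, FR1 and FR2 libraries and are not independent of each other. In such bulk libraries fewer cells that express a gene and less RNA per cell cannot be told apart.

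CXCR4, the receptor for CXCL12 that holds cells in bone marrow, was the receptor gene with the most reads in CTRL and hnCD16 and was nearly without reads in the FR groups. Its counts were 6204, 5679 and 5551 in the CTRL libraries and 5701, 5769 and 5424 in hnCD16. They were 3, 3 and 6 in FR1 and 17, 7 and 9 in FR2. No FR library came near any library of the other groups. The mean level was 303 ± 13.1 CPM (SD, n = 3) in hnCD16 and 292 ± 21.6 in CTRL, against 0.230 ± 0.0977 in FR1 and 0.621 ± 0.292 in FR2. Over the summed reads CXCR4 was 1316-fold lower in FR1 than in hnCD16 (exact 95% counting interval 753 to 2548) and 487-fold lower in FR2 (347 to 708). The fitted log2 fold changes were -10.32 ± 0.147 (SE) and -8.91 ± 0.129, with edgeR adjusted p of 9.313e-20 and 9.712e-20. Against CTRL they were -10.27 and -8.86. All intervals on read ratios cover counting error only.

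CCR4, a receptor for CCL17 and CCL22 known from skin-homing and type 2 T cells, followed the same pattern at a lower level. Its expected counts were 1154, 1065 and 1034 in CTRL, 1292, 1293 and 1182 in hnCD16, 38, 45 and 27 in FR1 and 44, 53 and 43 in FR2. Unlike CXCR4, it kept 27 to 53 reads in each FR library, above the floor. The mean level was 67.6 ± 4.21 CPM in hnCD16 and 54.6 ± 3.92 in CTRL, against 2.11 ± 0.538 in FR1 and 2.63 ± 0.300 in FR2. The log2 fold change was -5.00 ± 0.115 (SE) in FR1 and -4.68 ± 0.110 in FR2 against hnCD16, with adjusted p of 4.028e-17 and 5.519e-17 in edgeR. Some of its counts were fractional, which means that RSEM divided reads between CCR4 and another sequence.

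CCR9, the receptor for CCL25 that guides cells to thymus and small intestine, was low in every group. It had 25, 16 and 18 counts in CTRL and 15, 16 and 13 in hnCD16, against 2, 0 and 1 in FR1 and 1, 1 and 2 in FR2. All 6 FR libraries were under the floor of 3 counts, so the remaining level was not detectable at this depth. Over the summed reads it was 13.7-fold lower in FR1 than in hnCD16 (4.40 to 69.0) and 10.5-fold lower in FR2 (3.81 to 40.1), with edgeR adjusted p of 1.070e-05 and 1.681e-05. CCR9 lies on chromosome 3 inside LZTFL1, a gene on the opposite strand with which it shares 23 exonic bases in GENCODE v44. LZTFL1, looked up after its values were seen, was at 38.0 ± 3.37 CPM in hnCD16 and 38.2 ± 1.16 in CTRL, against 0.250 ± 0.0341 in FR1 and 0.377 ± 0.0614 in FR2. LZTFL1 fell with CCR9. The strand setting of the counting is not given in the sources used here. Without strand, unspliced LZTFL1 RNA and CCR9 reads cannot be told apart, nor can reads of the shared exonic bases.

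CCR1, an inflammatory receptor for CCL3, CCL5 and related chemokines, showed the opposite pattern to CXCR4. The CTRL libraries had 0 counts, and the hnCD16 libraries 1, 0 and 0. FR1 had 1007, 1065 and 1072 counts and FR2 had 758, 719 and 711. FR1 lay above FR2 in every library, at 60.4 ± 1.82 against 41.3 ± 1.01 CPM. Against CTRL, CCR1 was higher by at least 400.1-fold (FR1) and 273.5-fold (FR2), taking 3 counts in each CTRL library as the floor. Against the single hnCD16 read the ratio was 3363 in FR1 (603 to 1.329e+05) and 2299 in FR2 (412 to 9.085e+04). The edgeR adjusted p was 1.738e-17 and 7.036e-17. The gene lies on chromosome 3 (46201711 to 46208313, minus strand, GRCh38) within the span of CCR3 on the opposite strand, with 0 shared exonic bases.

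CXCR6, the receptor for CXCL16 known from tissue-resident NK and T cells, was also up-regulated in both FR groups. It had 14, 14 and 25 counts in CTRL and 12, 25 and 20 in hnCD16, against 222, 206 and 235 in FR1 and 133, 136 and 119 in FR2. The lowest FR library lay well above the highest of the others. Mean levels were 12.7 ± 0.764 CPM in FR1 and 7.32 ± 0.457 in FR2, against 1.02 ± 0.350 in hnCD16 and 0.887 ± 0.310 in CTRL. The log2 fold change against hnCD16 was 3.63 ± 0.179 (SE) in FR1 and 2.83 ± 0.194 in FR2, with edgeR adjusted p of 2.380e-12 and 2.476e-10. CXCR6 lies on chromosome 3 inside FYCO1, again on the opposite strand, with 0 shared exonic bases. FYCO1, chosen after its values were seen, rose as well, from 31.8 ± 1.22 CPM in hnCD16 to 188 ± 6.41 in FR1 and 216 ± 7.33 in FR2, so unspliced FYCO1 RNA and CXCR6 reads cannot be told apart here without strand. In FR1 against FR2 the log2 fold change was -0.20 for FYCO1 and 0.80 for CXCR6, both under the fold threshold.

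CXCR3, the receptor for the interferon-induced chemokines CXCL9, CXCL10 and CXCL11, stayed low in all groups. It had 12, 12 and 16 counts in CTRL, 8, 15 and 3 in hnCD16, 19, 25 and 30 in FR1 and 20, 19 and 21 in FR2. The FR libraries were all above the others, but by few reads, and the hnCD16 libraries alone ran from 3 to 15. Its log2 fold change against hnCD16 was 1.59 ± 0.362 (SE) in FR1 and 1.27 ± 0.377 in FR2, with edgeR adjusted p of 0.0006408 and 0.005334. Against CTRL, CXCR3 was called in FR1 at 1.08 ± 0.332 (adjusted p = 0.006706) and was not called in FR2 at 0.75 ± 0.345 (adjusted p = 0.0555). The call depended on single libraries: FR1 against CTRL was 0.98 without CTRL replicate 2 and 0.92 without FR1 replicate 3, and FR2 against hnCD16 was 0.85 without hnCD16 replicate 3, all under the fold threshold.

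S1PR1, the S1P receptor for egress from lymphoid organs, was lowest in FR1. It had 162, 151 and 149 counts in CTRL, 120, 112 and 88 in hnCD16, 50, 62 and 45 in FR1 and 103, 115 and 109 in FR2. FR1 did not overlap any other group, whereas FR2 overlapped hnCD16. Mean levels were 3.02 ± 0.518 CPM in FR1 and 6.17 ± 0.376 in FR2, beside 5.75 ± 0.962 in hnCD16 and 7.75 ± 0.463 in CTRL. FR1 was down-regulated against CTRL (log2 fold change -1.36 ± 0.146, adjusted p = 1.235e-07 in edgeR). Against hnCD16 the value was -0.93 ± 0.154 (adjusted p = 2.591e-05 in edgeR), under the fold threshold, which it passed without hnCD16 replicate 3 (-1.06) or FR1 replicate 2 (-1.07).

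CCR7, the receptor for CCL19 and CCL21 that guides cells into lymph nodes, kept a middle level in all groups. It had 298, 318 and 294 counts in CTRL, 265, 227 and 245 in hnCD16, 232, 220 and 245 in FR1 and 352, 375 and 348 in FR2. The FR2 libraries were the highest and the FR1 libraries overlapped hnCD16. Mean levels were 15.3 ± 0.641, 13.2 ± 1.09, 13.4 ± 0.640 and 20.3 ± 0.823 CPM in CTRL, hnCD16, FR1 and FR2. FR2 differed from hnCD16 by a log2 fold change of 0.62 ± 0.0759 (adjusted p = 7.477e-07 in edgeR), less than the fold threshold. CCR6, the receptor for CCL20, ranged from 1.15 to 3.17 CPM over the 12 libraries. All groups overlapped in CCR6, and its adjusted p was between 0.208 and 0.957 in the 6 comparisons. Its counts, too, were fractional in every library.

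**Figure D1:**
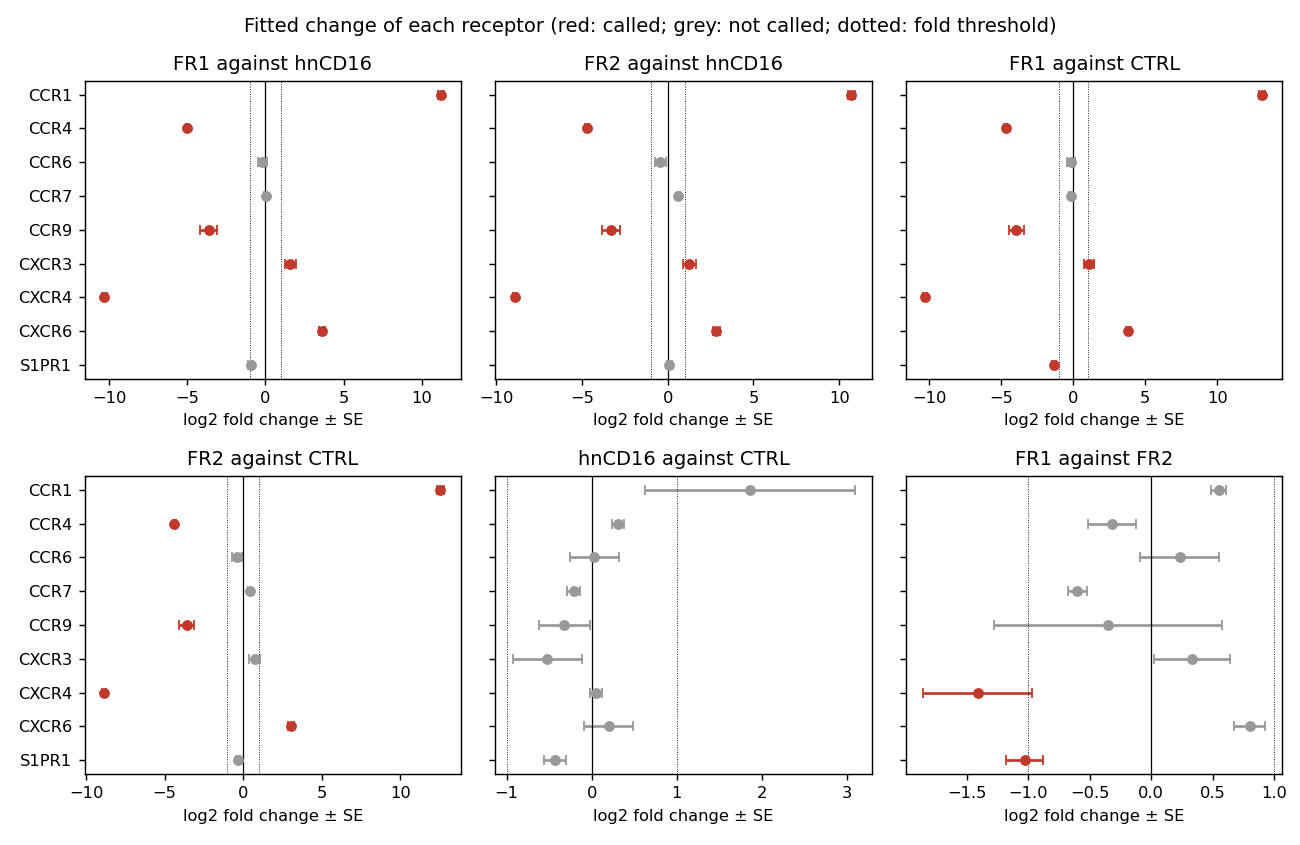
Fitted log2 fold change ± SE (horizontal axis) of each receptor in the 6 comparisons, red where called a DEG, with dotted lines at the fold threshold of 1 and a separate scale in each panel. CCR1 stands farthest to the right and CXCR4 farthest to the left in the 4 comparisons of an FR group with hnCD16 or CTRL; the fitted values of CCR1 there depend on the prior count, since CTRL had 0 reads and hnCD16 had 1.

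The comparison of hnCD16 with CTRL asks what the receptor without added signalling parts changed. None of the 9 receptors was called a DEG by edgeR, where 0.212% of all tested genes were higher and 0.315% lower. DESeq2 called 0 as well. Before adjustment, 3 of the 9 had a p under 0.05 in edgeR, as did 49.4% of all tested genes. At an adjusted p of at most 0.05 alone, which 43.0% of all tested genes met, 3 passed: CCR4 at a log2 fold change of 0.31 ± 0.0717, CCR7 at -0.21 ± 0.0775 and S1PR1 at -0.43 ± 0.128. The CTRL and hnCD16 libraries did not overlap in these 3 genes, which adds no support since their p comes from the same libraries. CXCR4 differed by 0.05 ± 0.0661 and CXCR6 by 0.20 ± 0.289.

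FR1 and FR2 differ by the 2B4 part. Their FCGR3A level differed too, at 32.4 ± 0.427 CPM in FR1 and 61.3 ± 3.15 in FR2. The 2B4 part, this level and any other difference between the FR1 and FR2 cells cannot be told apart. In FR1 against FR2, 0.439% of all tested genes were called higher and 1.49% lower, and of the receptors 0 were higher and 2 lower. S1PR1 was lower in FR1 by a log2 fold change of -1.03 ± 0.153 (adjusted p = 6.483e-05 in edgeR), and its 3 FR1 libraries (2.57 to 3.58 CPM) lay below the 3 FR2 libraries (5.76 to 6.51 CPM). That value is close to the threshold and was -0.93 without FR1 replicate 3 and -0.99 without FR2 replicate 2. CXCR4 was lower by -1.41 ± 0.443 (adjusted p = 0.01958 in edgeR), on 12 reads against 33. Its ratio over the summed reads was 0.370 (0.174 to 0.736), and the call was lost without FR1 replicate 1 (adjusted p = 0.0519), FR1 replicate 2 (0.0736) or FR2 replicate 1 (0.155). At the adjusted p alone, 5 of the 9 receptors and 36.2% of all tested genes passed. Of these 5, under the fold threshold, CCR1 was higher in FR1 by 0.55 ± 0.0605 and CXCR6 by 0.80 ± 0.127, and CCR7 was lower by -0.60 ± 0.0765. The libraries of FR1 and FR2 did not overlap in any of these 5 genes. They were picked by their p between the same libraries, so this adds no support. CCR4 (-0.32 ± 0.193), CXCR3 (0.33 ± 0.307) and CCR6 (0.23 ± 0.319) did not pass, and CCR9 was under the floor in both groups.

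TPM values, which are scaled for transcript length, allow levels of different receptors to be set side by side. The 9 receptors together came to 412 ± 11.8 TPM in CTRL and 389 ± 8.92 in hnCD16, against 66.1 ± 2.28 in FR1 and 57.2 ± 0.823 in FR2. CXCR4 made up 85.3% of that sum in CTRL and 84.7% in hnCD16, but 0.361% in FR1 and 1.12% in FR2. CCR1 made up 59.2% in FR1 and 47.1% in FR2. In CTRL the order was CXCR4 (351 ± 11.3 TPM), CCR4 (37.1 ± 1.52), CCR7 (13.9 ± 0.710) and S1PR1 (5.54 ± 0.111), each apart from the next, and these same 4 led in hnCD16. Below them CCR6, CXCR3, CXCR6 and CCR9 overlapped with their neighbours in CTRL. In FR1 the order was CCR1 (39.1 ± 1.60 TPM), CXCR6 (10.7 ± 0.789) and CCR7 (10.5 ± 0.614), of which the last 2 did not differ beyond their spread. In FR2 it was CCR1 (26.9 ± 0.970 TPM), CCR7 (16.1 ± 0.489) and CXCR6 (6.13 ± 0.272), all apart. CXCR4 and CCR9 came last in both FR groups.

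The transcript table divides each gene's reads among its annotated transcripts, as estimated by RSEM. For CXCR6 the transcript NM_001386435 had 0 expected reads in all 6 CTRL and hnCD16 libraries, which had 12 to 25 CXCR6 reads each. In FR1 it had 121 to 222 reads, or 80.8% of the CXCR6 reads of the group, and in FR2 84.6 to 107 reads, or 74.6%. Another transcript, NM_006564, took 37.4% in CTRL and 63.7% in hnCD16, but 7.04% and 5.95% in FR1 and FR2. Its share ran from 0 to 100% between single CTRL libraries, so shares at these read numbers are unstable. For CXCR4, NM_003467 took 95.4% of reads in CTRL and 96.4% in hnCD16. It had 5202 to 5961 reads in these 6 libraries and 3 to 13.03 in the FR libraries. CCR4 had a minor transcript, XM_017005687, at 7.99% in CTRL and 8.83% in hnCD16 and at 0 reads in FR1 and FR2, where the whole gene had 27 to 53 reads a library. CCR1 has 1 transcript in the table. No test was run on transcripts.

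The genes around these receptors were followed in 7 lists, and their counts are to be read beside the shares of all tested genes called against hnCD16, 18.7% higher and 19.6% lower in FR1 and 19.6% and 19.8% in FR2. Among chemokine ligands of the receptors, 6 of 11 in the table were tested, and 4 were up-regulated and 0 down-regulated in FR1 as in FR2 against hnCD16. Their median log2 fold change was 2.63 in FR1 and 2.01 in FR2 with genes at 0 in hnCD16 set to their bound. CCL3, a ligand of CCR1, was at 0 in hnCD16, at 61.9 ± 3.52 CPM in FR1 and at 5.47 ± 0.961 in FR2. Over 3 counts in each hnCD16 library, that is higher by at least 383.4-fold (FR1) and 33.86-fold (FR2). CCL4 was at 8.26 ± 1.45 CPM in FR1 and 0.653 ± 0.248 in FR2, and both genes were called higher in FR1 than in FR2, by 3.50 ± 0.103 and 3.67 ± 0.250 on the log2 scale. Their copies in the genome share reads, so the division among them is uncertain. CCL5, another ligand of CCR1, rose from 6.09 ± 0.521 CPM in hnCD16 to 72.5 ± 4.55 in FR1 and 48.8 ± 1.63 in FR2.

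Of the other chemokine receptors, 5 of 10 in the table were tested; 3 were up-regulated and 1 down-regulated in each FR group against hnCD16. CCR3, an eotaxin receptor within whose span CCR1 lies on the opposite strand, was at 0 in CTRL and hnCD16 and at 3.19 ± 0.261 CPM in FR1 and 5.69 ± 0.179 in FR2. Without strand, unspliced RNA of CCR3 and reads of CCR1 cannot be told apart here. CCR2, the receptor for CCL2, was at 0.108 ± 0.0937, 1.02 ± 0.169 and 2.91 ± 0.498 CPM in hnCD16, FR1 and FR2, and was lower in FR1 than in FR2 by -1.51 ± 0.260 on the log2 scale. Its counts in the FR libraries were fractional. Atypical receptors bind chemokines without classical G protein signalling, and of 5 tested in a list of these and their relatives 1 was higher and 3 lower in FR1, 1 higher and 2 lower in FR2. ACKR3, which binds CXCL12 as CXCR4 does, fell from 6.19 ± 0.166 CPM in hnCD16 to 1.65 ± 0.502 in FR1 and 0.226 ± 0.0557 in FR2. It was higher in FR1 than in FR2 by 2.83 ± 0.412, the opposite order to CXCR4. CCRL2, which binds chemerin, had 110, 97 and 96 counts in hnCD16, 0, 0 and 1 in FR1 and 7, 5 and 1 in FR2. GPR35, listed with them, was at 2.72 ± 0.676 CPM in hnCD16 and fell to 1.23 ± 0.293 in FR1, with 1.42 ± 0.135 in FR2, which was not called.

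S1PR1 has 4 relatives, of which 1 was called: S1PR3 fell from 7.77 ± 0.777 CPM in hnCD16 to 0.769 ± 0.837 in FR1 and 0.527 ± 0.258 in FR2. In the list of enzymes and transporters of S1P, 2 of 10 tested genes rose and 1 fell in FR1, and 2 rose and 2 fell in FR2, near the shares over all tested genes. SPHK1, the kinase that makes S1P, rose from 0.197 ± 0.0595 CPM in hnCD16 to 31.4 ± 1.41 in FR1 and 33.3 ± 0.660 in FR2. CERS2, a ceramide synthase, rose from 135 ± 7.48 to 504 ± 9.72 and 451 ± 9.92 CPM. SGPP2, an S1P phosphatase, fell from 15.1 ± 1.89 to 5.30 ± 0.877 and 4.57 ± 0.569 CPM. The list had a median log2 fold change of 0.01 (FR1) and 0.26 (FR2).

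Downstream of the receptors, 25 signalling and desensitisation genes were tested; 13 rose and 4 fell in FR1, and 11 rose and 4 fell in FR2, against hnCD16. Over all tested genes 18.7% rose and 19.6% fell in FR1, and 19.6% and 19.8% in FR2. The medians of the list were 1.07 and 0.80. GNG2, a G protein gamma subunit, fell from 131 ± 2.62 CPM in hnCD16 to 0.0964 ± 0.0883 in FR1 and 0.132 ± 0.0850 in FR2. PIK3R5, a regulatory subunit of the G protein-activated PI3 kinase, fell from 8.45 ± 0.436 to 0.305 ± 0.0761 and 0.523 ± 0.230 CPM, and RGS19, a G protein regulator, from 35.1 ± 1.08 to 4.32 ± 0.117 and 6.11 ± 0.0627. PREX1, an activator of Rac, rose from 0.593 ± 0.145 to 150 ± 9.51 and 197 ± 5.62 CPM. RGS16, which switches G proteins off, rose from 0.432 ± 0.199 to 12.02 ± 0.946 and 11.3 ± 0.735 CPM. RGS1, of the same family and known to dampen chemokine and S1P responses, stood at 30.7 ± 2.45 CPM in FR1 and 5.92 ± 0.423 in FR2, beside 1.31 ± 0.391 in hnCD16, and was the gene of this list called between FR1 and FR2 (2.37 ± 0.106 on the log2 scale, adjusted p = 2.438e-10 in edgeR).

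Among regulators and partners in homing, 9 of 18 tested genes rose and 2 fell in FR1, and 11 rose and 2 fell in FR2, beside the same shares over all tested genes. Their median log2 fold change was 1.18 and 1.46. TBX21, the gene of T-bet, which is known to drive CXCR3 in lymphocytes, rose from 0.0888 ± 0.111 CPM in hnCD16 to 80.1 ± 2.87 in FR1 and 72.2 ± 1.99 in FR2. PRDM1, the gene of the repressor Blimp-1, rose from 0.0719 ± 0.0313 to 71.6 ± 1.299 and 69.6 ± 5.33 CPM, and FOXO1, which is known to activate KLF2, from 0.162 ± 0.0549 to 31.3 ± 1.71 and 36.7 ± 1.47. CD69, whose protein binds S1PR1 and takes it off the surface, fell from 14.3 ± 0.891 CPM to 0.384 ± 0.0679 and 0.321 ± 0.0688. GATA3, which is known for type 2 lymphocytes that carry CCR4, fell from 44.5 ± 2.096 to 15.3 ± 1.67 and 21.7 ± 1.13 CPM. KLF2, a transcription factor known to activate S1PR1, had 2, 3 and 5 counts in hnCD16, 19, 25 and 20 in FR1 and 123, 123 and 132 in FR2. It was lower in FR1 than in FR2 by -2.53 ± 0.171 on the log2 scale (adjusted p = 2.336e-08 in edgeR).

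**Figure D2:**
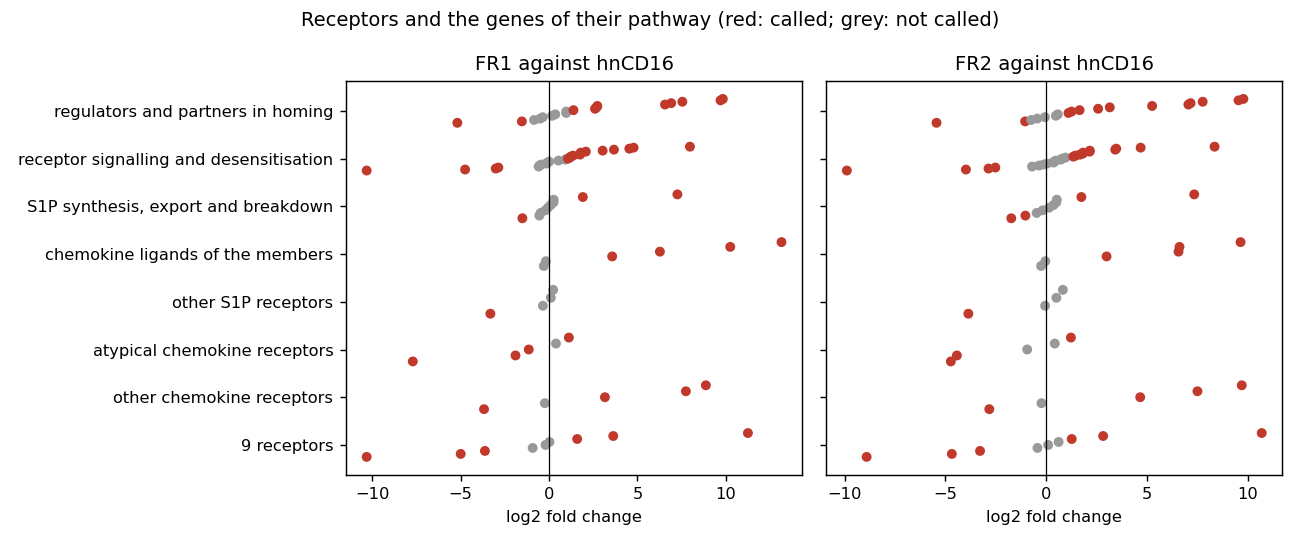
Fitted log2 fold change (horizontal axis) of the 9 receptors and of the tested genes of 7 related lists in FR1 and FR2 against hnCD16, 1 point per gene, red where called a DEG and spread vertically within a list by rank. Of the signalling list 13 genes rose and 4 fell in FR1, and the ligands called all rose; points of genes at 0 reads in hnCD16 depend on the prior count.

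Genes with the pattern most like each receptor over the 12 libraries were found by the root mean square difference of centred log2(CPM + 1). The nearest to CXCR4 were ALDH1A2 at 0.140 and HMGN3 at 0.185, and to CCR4 BTBD3 at 0.147 and TP53I3 at 0.149. The nearest to CCR1 were SAMD3 at 0.0999 and MT1E at 0.151, and to CXCR6 CD5L at 0.176 and SLC6A13 at 0.178. CCR7 lay nearest to DHTKD1 at 0.0542 and TMCO6 at 0.0584, and S1PR1 to RNF144A at 0.145 and SLC37A4 at 0.153. For the genes with few reads the nearest were YY1 and SNRPA to CCR9, ACD and MBD5 to CXCR3, and GABRG3 and SRGAP1 to CCR6, at 0.0617 to 0.155. Adding 1 to the CPM flattens changes of genes near or under 1 CPM, so these neighbours need not share their fold changes. YY1 lay 6.71 above CCR9 in mean log2(CPM + 1).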

How the data were processed

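RNA-seq of 12 libraries (4 groups of 3) of cells that the study names YT was analysed. Per the study's methods, RNA was freed of ribosomal RNA (oligo(dT) beads are named too, in the labels), and the authors filtered reads with SOAPnuke, and mapped and counted them with HISAT2 2.1.0 and RSEM 1.3.1 on GRCh38.p13, versions per the submitters' processing notes. The strand setting is not given in the sources used here. The deposited expected counts of genes and transcripts are RSEM estimates without normalization, and the deposited TPM values come from the same reads. Transcripts added up to their gene within 0.05 counts in 100% of values. The other 80 value columns (FPKM, normalized counts, means) were not used.

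Expected counts were rounded and tested with edgeR 4.0.16 (R 4.3.3; TMM, filterByExpr, quasi-likelihood, 1 fit of all groups) with Benjamini-Hochberg adjustment within each of 6 comparisons. CPM uses TMM library sizes, whose factors were 0.939 to 1.107. In simulated FR1 against hnCD16 counts over 13412 genes, 200 of 200 genes changed by a log2 fold change of 2 were recovered, with 0 false calls. The changed genes were drawn from those above a minimum mean count, at a fixed dispersion. The result therefore does not cover genes of few reads such as CCR9 and CXCR3. Only these 200 genes were changed, whereas in the data 18.7% of tested genes were called higher and 19.6% lower in FR1 against hnCD16. Scaling and false calls with so many changed genes were therefore not covered by the simulation. Replicate pairs differed by more than sampling noise (chi-square per gene 2.06 to 12.3). Whether the replicate numbers pair the libraries was tested by correlating how same-numbered libraries deviate from their group means. In no comparison did every same-numbered pair pass 0.1. In hnCD16 against CTRL, replicates 1 and 3 reached 0.338 and 0.404, and replicate 2 was at 0.019. As alternatives, DESeq2 1.42.0, RLE, limma 3.58.1 on log2(TPM + 1), library size only, other filters, 2-group fits, the replicate block, no fold threshold, and leaving out each library were tried.

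The receptors, lists and tests were chosen with earlier results of these data known. All 9 receptors are named. From the other lists, genes called in hnCD16 against CTRL or FR1 against FR2 are named, with the 3 highest and 3 lowest changes per list among genes called in FR1 against hnCD16 with a mean of at least 1 CPM; for cell type markers, summed levels and markers at the floor are given instead. FCGR3A, FYCO1 and LZTFL1 were added after values were seen. SPHK2 was named outside this rule, beside SPHK1, also after values were seen. The lists hold 2 more genes whose values are left out. Gene positions are from GENCODE v44 on GRCh38, promoter windows from RefSeq on GRCh38.p14. Figures used matplotlib 3.10.9.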

Additional observations from a re-analysis of the deposited data

Results flagged for a closer look

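Of the 9 receptors, 2 differed by the edgeR test of FR1 against FR2. These groups differ by the 2B4 part and also in the level of FCGR3A, which cannot be told apart here. CXCR4 was lower in FR1 by a log2 fold change of -1.41, on 3, 3 and 6 counts against 17, 7 and 9. S1PR1 was lower in FR1 by -1.03, on 50, 62 and 45 counts against 103, 115 and 109. In each gene, all 3 FR1 libraries lay below all 3 FR2 libraries, which is no support apart from the test on the same libraries.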

How the results depend on the processing

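The numbers of receptors called did not move with DESeq2, RLE or a filter of at least 1 count, and moved by at most 1 with library size only. Requiring at least 10 counts in every library left 5 receptors to test, because it removes genes that are near 0 in some groups, and 2 were then called in FR1 against hnCD16, 2 in FR2 against hnCD16, 3 in FR1 against CTRL, 2 in FR2 against CTRL and 1 in FR1 against FR2. For FR1 against FR2, fitting only these 2 groups called 1 of 7 receptors tested, and limma on log2(TPM + 1), a scale that shrinks changes of low genes, called 0. Without the fold threshold, 3 receptors passed in hnCD16 against CTRL and 5 in FR1 against FR2, beside 43.0% and 36.2% of all tested genes. Leaving out 1 library at a time gave 6 to 7 receptors in FR1 against hnCD16 and in FR1 against CTRL, 5 to 6 in FR2 against hnCD16, 5 in FR2 against CTRL, 0 in hnCD16 against CTRL and 1 to 2 in FR1 against FR2. With limma, CCR9 moved under the fold threshold in all 4 comparisons of an FR group with hnCD16 or CTRL (-0.76 to -0.58), as did CXCR3 in the 3 where it had been called (0.39 to 0.68). With library size only, CXCR3 in FR1 against CTRL was 0.88 and S1PR1 in FR1 against hnCD16 was -1.01, and the median of all genes shifted to as low as -0.219 (FR1 against CTRL).

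Over single receptors and alternatives, 688 values kept their direction and their side of the thresholds, 18 called values fell under one, 3 values newly passed and 20 changed sign, all of them not called. With library size only, CCR7 in FR1 against hnCD16 was -0.06, and in hnCD16 against CTRL CCR6 was -0.08 and CXCR4 -0.06. With limma the same 3 were -0.05, -0.08 and -0.09, and with at least 10 counts in every library CCR7 was -0.01. Over left-out libraries, values in hnCD16 against CTRL ran from -0.34 to 0.31 for CCR6, 0.00 to 0.11 for CXCR4 (-0.00 without CTRL replicate 3), 0.00 to 2.32 for CCR1 and -0.05 to 0.51 for CXCR6. In FR1 against hnCD16 they ran from -0.48 to 0.17 for CCR6 and from -0.03 to 0.08 for CCR7. They ran from -0.35 to 0.08 for CCR6 in FR1 against CTRL, from -0.03 to 0.20 for S1PR1 in FR2 against hnCD16 and from -1.24 to 0.18 for CCR9 in FR1 against FR2.

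Replicate numbers are shared across groups, but the mean correlation of same-numbered deviations was -0.035 to 0.254, and in no comparison did every pair pass 0.1. With the replicate block, 6, 6, 7, 5, 0 and 2 receptors were called in FR1 against hnCD16, FR2 against hnCD16, FR1 against CTRL, FR2 against CTRL, hnCD16 against CTRL and FR1 against FR2, as without it, and over all genes 5247, 5395, 5207, 5233, 75 and 275. Depth limited CCR9 in the FR groups, CXCR4 in FR1 and CXCR3 throughout.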
